A study of Mus musculus with 3 samples.

Results

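The nuclei described here were chosen by the RNA they held. A nucleus was taken when the unique molecular identifiers (UMIs, 1 per captured RNA molecule) of Mdm2, Polk, Apaf1 and Plekha7 summed to at least 4 and to at least 10 per 10000 UMIs of that nucleus, and when the microglial genes Inpp5d, Ptprc, Fyb and Adgre1 together had fewer than 3 UMIs. The rule found 753 of 12549 nuclei. They come from single-nucleus RNA sequencing of neurospheres grown from the subventricular zone of newborn C57BL/6 mice and then differentiated, with 1 library for each of 3 conditions. The labels give the genotypes as control, CBPf/f and p300f/f, where f/f marks 2 floxed copies of the gene, and give tamoxifen as the treatment of all 3. The study's methods instead describe infection with a lentivirus that carries Cre and mCherry (CBP-ablated and p300-ablated) or RFP alone (control), growth for 15 days in vitro, pooling of about 15 cultures and sorting of nuclei on the red fluorescence. The floxed line behind the control cultures is not given in the sources used here. CBP (gene Crebbp) and p300 (gene Ep300) are paralogous lysine acetyltransferases that act as transcriptional coactivators.

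The transcription factor p53 is held low by Mdm2, a ubiquitin ligase that marks it for degradation. When p53 is stabilised, for instance after DNA damage, it switches on genes that stop the cell cycle, repair DNA or prepare the cell for death, and it switches on Mdm2 itself, which closes a feedback loop. Of the 4 rule genes, Polk encodes a DNA polymerase that copies across damaged bases, Apaf1 forms the apoptosome that activates caspase 9, and Plekha7 is a protein of adherens junctions.

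The control library held 4884 nuclei and 16312170 UMIs, the CBP-ablated library 3017 nuclei and 12748336 UMIs, and the p300-ablated library 4648 nuclei and 18876682 UMIs. Cell barcodes were shared between control and CBP-ablated libraries in 3 cases, between control and p300-ablated in 7 and between the ablated libraries in 1, and 1 of these barcodes belonged to a selected nucleus. With 1 library per condition there is no replicate, and nuclei of 1 library are not replicates, so no test was made. Levels are UMIs summed over a set of nuclei and scaled to counts per 1000000 UMIs of that set (CPM). All intervals are 95% intervals that cover counting error only. Because the same RNA counts chose the nuclei, every contrast of selected with other nuclei below is a description.

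Short stretches upstream of the start sites are shown first, because p53 binds DNA through a motif of 10 letters, the p53 half-site, and because both Mdm2 and Polk hold a match. The 250 bases before each RefSeq start site (GRCm38.p6) were searched, and since the motif is palindromic 1 pass covers both strands. In the sequences, read 5′ to 3′ on the gene's strand, capitals mark the half-site and lower case the 10 bases on either side.
Mdm2 (chr10:117710925-117710954, minus strand): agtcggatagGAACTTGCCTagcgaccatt
Polk (chr13:96519399-96519428, minus strand): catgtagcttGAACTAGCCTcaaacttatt
Ccng1 (chr11:40755452-40755481, minus strand): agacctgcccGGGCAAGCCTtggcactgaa
Cdkn1a, first (chr17:29090896-29090925, plus strand): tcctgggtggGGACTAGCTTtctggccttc
Cdkn1a, second (chr17:29090918-29090947, plus strand): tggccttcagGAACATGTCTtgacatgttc
The half-site of Mdm2 lay 186 to 177 bases before the start and that of Polk 231 to 222 bases before it. Those of Cdkn1a lay at 73 to 64 and 51 to 42 bases, close enough to count as a full site, defined here as a pair of half-sites with a spacer of at most 13 bases. The Polk window lies inside the longer gene record of GENCODE. Across the table, 2216 of 27025 genes (8.20%) held a half-site and 18 (0.0666%) a full site. Among the 3 rule genes with an entry, 2 held a half-site, and among 43 p53 target genes with an entry 13 did (30.2%), of which Cdkn1a alone held a full site. Such a match describes letters, not binding.

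Plekha7 contributed more than any other rule gene to the choice. A Plekha7 UMI was present in 83.4% of the selected nuclei, a Mdm2 UMI in 68.4%, a Polk UMI in 55.5% and an Apaf1 UMI in 50.6%, and 238 nuclei (31.6%) had no Mdm2 UMI at all. All 4 genes were seen in 98 nuclei, 3 in 303, 2 in 289 and a single gene in 63, of which 50 held Plekha7 alone. Only 267 nuclei (35.5%) would have been chosen by Mdm2, Polk and Apaf1 without Plekha7, and 486 needed it. The name Mdm2-high p53-response nuclei is therefore only partly borne out, and the set is called the selected nuclei here. The median nucleus had 5 rule gene UMIs in the control library and 6 in either ablated library, and 225 nuclei sat exactly at 4 UMIs (39.6% of those in control, 19.1% in CBP-ablated, 26.1% in p300-ablated).

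The levels of the rule genes state what the rule asked for. Mdm2 (chromosome 10, 117688875 to 117710758, minus strand) stood at 476 CPM in the selected nuclei of the control library (463 UMIs, 433 to 521), at 420 in CBP-ablated (373 to 471) and at 465 in p300-ablated (425 to 507), against 91.7, 102 and 81.8 CPM in the other nuclei. Plekha7 (chromosome 7, 116123485 to 116308376, minus strand) stood at 664, 716 and 740 CPM against 71.0, 62.1 and 67.3. Polk was at 289, 262 and 223 CPM against 52.9, 52.5 and 48.4, and Apaf1 at 281, 229 and 195 CPM against 60.4, 50.3 and 50.7. Plekha7 was the most counted rule gene in each library, and Polk and Apaf1 were lowest in the p300-ablated set.

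Each rule gene was also read in nuclei that the other 3 had chosen, where its own counts played no part. Mdm2 was at 277 CPM in such control nuclei against 109 in the rest (log2 ratio 1.34, 1.10 to 1.58), at 230 against 116 in CBP-ablated (0.99, 0.68 to 1.29) and at 349 against 96.1 in p300-ablated (1.86, 1.64 to 2.07). A single p300-ablated nucleus supplied 74 of the 208 UMIs there, and without it the level was 226 CPM and the ratio 1.23 (0.97 to 1.49), an alternative chosen after seeing the data. The log2 ratio of Polk was 1.54, 1.81 and 1.31 in the order control, CBP-ablated, p300-ablated, that of Apaf1 1.21, 1.67 and 1.03, and that of Plekha7 1.78, 1.90 and 2.02. Every rule gene was therefore higher where the others were high, in all 3 libraries. Within the RGC/PSC-like cluster described below, the ratios were: over the 3 libraries together 0.80 for Mdm2 (0.60 to 0.99), 0.76 for Polk (0.53 to 0.99), 1.09 for Apaf1 (0.84 to 1.33) and 0.64 for Plekha7 (0.45 to 0.83). In the cluster led by Gfap and Dnah6 they were not all smaller, at 1.22 for Mdm2 (0.70 to 1.69), 0.82 for Polk (0.23 to 1.36), 1.22 for Apaf1 (0.61 to 1.78) and 0.78 for Plekha7 (0.20 to 1.30), on 25 to 72 chosen nuclei.

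The share of selected nuclei was alike in the 3 libraries. It was 6.20% in control (303 of 4884, Clopper-Pearson 5.54 to 6.92), 5.90% in CBP-ablated (178 of 3017, 5.09 to 6.80) and 5.85% in p300-ablated (272 of 4648, 5.19 to 6.57). Set against control, CBP-ablated nuclei differed by -0.304 percentage points (Newcombe interval -1.36 to 0.8004) and p300-ablated nuclei by -0.352 (-1.31 to 0.607), so neither difference exceeded counting error. The share moved with depth, however. Among nuclei under 4000 UMIs it was 6.94%, 6.72% and 6.49%, and among nuclei of at least 4000 UMIs 3.70% (41 of 1109), 5.10% (78 of 1528) and 5.13% (112 of 2184). When the deeper nuclei were thinned at random to 4000 UMIs, the shares became 7.12%, 8.44% and 7.78%, higher than in the same nuclei unthinned. Of the 378 nuclei that passed after thinning, 217 (57.4%) had passed with all their UMIs, and 93.9% of the 231 that had passed before passed again. Which nuclei passed thus varied with counting at this depth. The order of the libraries also depended on the limits. At 15 per 10000 the share was 3.75% in control, 2.82% in CBP-ablated and 2.60% in p300-ablated (differences from control of -0.930 and -1.14 percentage points, the latter -1.85 to -0.440), while at 6 UMIs it was 2.21%, 3.12% and 3.03% (differences of 0.904 and 0.822, the latter 0.181 to 1.47). The first limit favours shallow nuclei and the second deep ones, and the control library was the shallowest, so a difference in share between libraries cannot be told apart from one in depth.

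**Figure D1:**
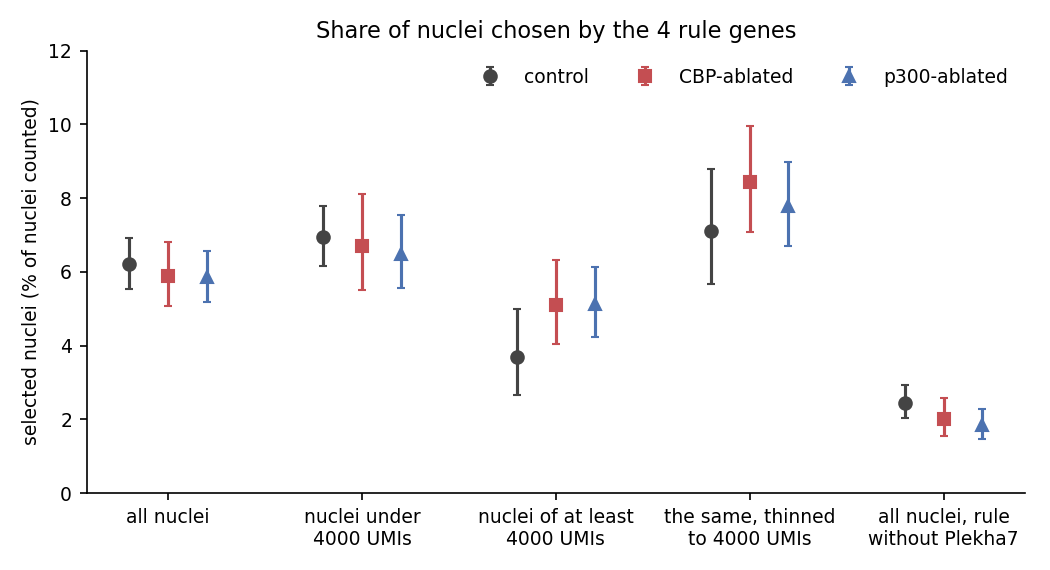
Share of selected nuclei (% of the nuclei counted, vertical axis) in each library, for all nuclei, for nuclei under and above 4000 UMIs, after thinning, and for the rule without Plekha7. Points are shares and bars 95% Clopper-Pearson intervals; intervals of the libraries overlap within every setting, although without Plekha7 p300-ablated less control is -0.607 points (-1.19 to -0.0214), while the settings differ, from 7.12% to 8.44% after thinning down to 1.85% to 2.46% without Plekha7.

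The median depth of the selected nuclei was close to that of the rest. It was 3119 UMIs and 1585 genes in control, against 3223 UMIs and 1527 genes in the other nuclei. In CBP-ablated the medians were 3815.5 UMIs and 1844 genes against 4028 and 1805, and in p300-ablated 3817.5 UMIs and 1840 genes against 3913.5 and 1724. They therefore held slightly fewer UMIs and slightly more genes than the rest in each library. Mitochondrial transcripts made up 0.0106%, 0.00441% and 0.00373% of their UMIs, and 0.0109%, 0.00827% and 0.00709% of those of the other nuclei, so the share was lower in both ablated libraries. Scrublet called 3.63%, 1.69% and 2.57% of them doublets, against 3.93%, 2.47% and 3.79% of the other nuclei. Among control nuclei of at least 4000 UMIs the calls were more frequent in both, at 7 of 41 selected (17.1%, 7.15 to 32.1) and 12.3% of the others.

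To see where the selected nuclei lay, all nuclei were clustered without the rule genes and without the p53 target genes, and clusters were named from marker lists. At the resolution used (0.6), most selected nuclei fell into 1 cluster, which expressed 7 of the 9 markers of radial glial cells and pluripotent stem cells (RGC/PSC-like) and also passed for a glial progenitor cluster. It held 453 of them (60.2%, 56.6 to 63.7), and they made up 22.4% of its nuclei in control (145 of 648), 23.2% in CBP-ablated (116 of 499) and 20.4% in p300-ablated (192 of 940). At a finer resolution of 1.2 the largest cluster held only 227 of the 753 (30.1%), with 170 and 102 in the next clusters. An astrocyte-like cluster of 1277 nuclei, found in the control library only, held 102 (7.99% of it, 6.56 to 9.61), and a cluster led by Gfap together with the motile cilium genes Dnah6, Ccdc170, Cfap44 and Ak9 held 86 of 1145. The latter expressed 4 of 5 glial progenitor markers but stayed unnamed, since its leading genes held more cilium genes than such markers. The control set was thus the most mixed, with 47.9% in the RGC/PSC-like cluster and 33.7% in the astrocyte-like one, while 65.2% of the CBP-ablated and 70.6% of the p300-ablated set lay in the RGC/PSC-like cluster.

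Few selected nuclei lay in the neuronal and oligodendroglial clusters. The NPC/OPC-like cluster (neuronal and oligodendrocyte progenitors) held 20 of its 3008 nuclei, the oligodendrocyte-like cluster 19 of 838, the proliferating-like cluster 12 of 709, the immature neuron-like cluster 8 of 903, the neuron-like cluster 1 of 359 and the microglia-like cluster 1 of 315. An unnamed cluster led by Gpr149, Syt1 and Ets1 held 27 of 450 and another led by Wnt5b and Smad6 held 15 of 232. The level of Plekha7 in nuclei that were not selected was also highest in the RGC/PSC-like cluster and low in the NPC/OPC-like one, though it did not follow the order of the shares throughout, at 224 CPM in the RGC/PSC-like cluster, 158 in the cluster led by Gfap and Dnah6, 142 in the cluster led by Wnt5b, 94 in the astrocyte-like and 10.5 in the NPC/OPC-like cluster. Mdm2 in unselected nuclei was 104 CPM in the RGC/PSC-like, 82.9 in the one led by Gfap and Dnah6, 104 in the astrocyte-like and 63.5 in the NPC/OPC-like cluster, and was 161 CPM in the oligodendrocyte-like cluster, where 18 of the 19 selected nuclei did not need Plekha7.

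**Figure D2:**
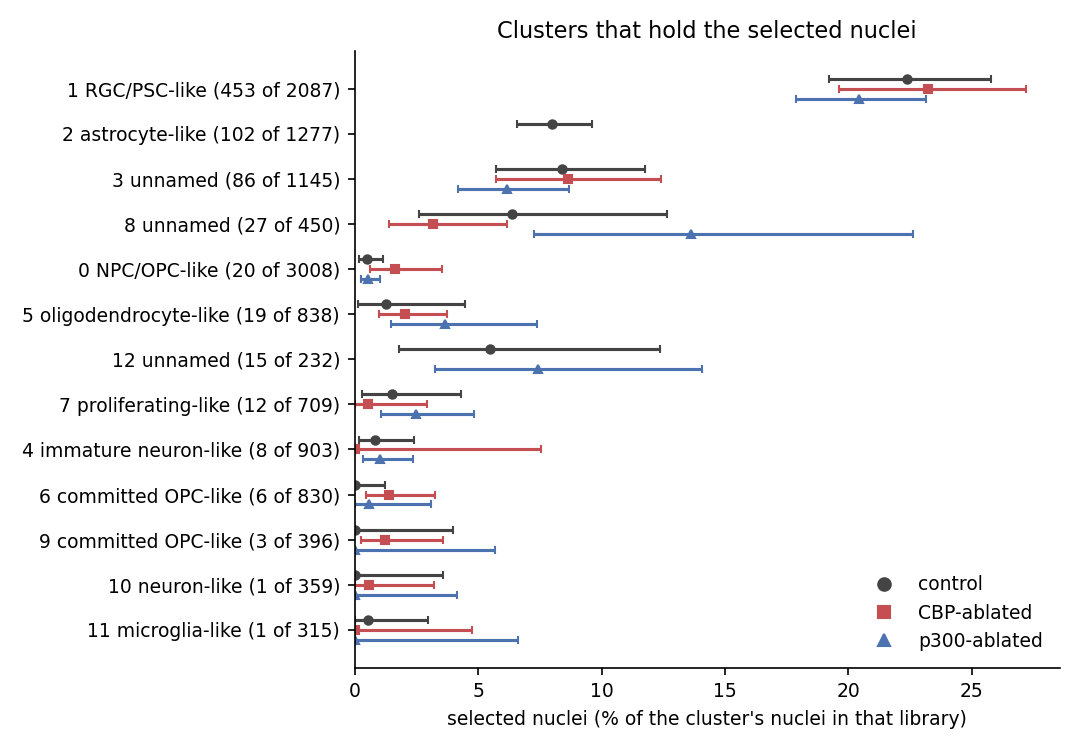
Share of each cluster's nuclei that were selected (horizontal axis, %), by library, with 95% Clopper-Pearson intervals. Unnamed clusters 3, 8 and 12 are those led by Gfap and Dnah6, by Gpr149 and by Wnt5b, the last not drawn for CBP-ablated, which gave it 33 nuclei, and the numbers beside each name are selected nuclei of all nuclei. The RGC/PSC-like cluster lies near 20.4% to 23.2% in all 3 libraries, above every other cluster.

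Levels of lineage genes were read next. The clusters had been named from the same marker lists, so these levels are not separate evidence of lineage. Among the 7088 genes with at least 200 UMIs in every library, 196 (2.77%) were at least 2-fold higher in the selected nuclei of all 3 libraries, 306 (4.32%) at least 2-fold lower in all 3, and 2539 (35.8%) above the other nuclei in all 3. Of the RGC/PSC markers, 6 of 8 that passed this filter were among the 2-fold higher genes. Lrp2, an endocytic receptor of neuroepithelial cells, was at 440, 490 and 599 CPM in the selected nuclei against 95.4, 90.2 and 144 in the others. Shroom3, which shapes the apical side of epithelial cells, was at 1519, 3059 and 2602 CPM against 395, 616 and 675, and Pde1a, a calmodulin-dependent phosphodiesterase, at 486, 591 and 650 CPM against 113, 108 and 178. Nes (nestin), Vim (vimentin) and Notch2 were 2-fold higher too, whereas Sox2, a factor of neural stem cells, had log2 ratios below 0 ( -0.18, -0.62 and -0.39).

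Markers of other lineages were lower or mixed. All 8 NPC/OPC markers were below the other nuclei in all 3 libraries, against 24% of all genes, 6 of them at least 2-fold, with Pdgfra, the PDGF receptor of oligodendrocyte progenitors, at 25.7, 64.1 and 93.7 CPM against 249, 207 and 470. The 6 neuron markers and 2 immature neuron markers that passed the filter were all at least 2-fold lower in all 3 libraries, against 4.32% of all genes, as were 2 of 4 oligodendrocyte markers. Astrocyte markers were not uniform, with Slc1a3, a glutamate transporter, at 1059, 763 and 666 CPM against 693, 321 and 446, but Gpc5, a glypican, at 2534, 198 and 385 CPM against 2373, 214 and 956. Ependymal markers summed to 151, 202 and 210 CPM against 46.8, 57.6 and 77.0. Cfap54, a protein of motile cilia, was the most abundant of these 5 genes, 1 of them had no UMI in the selected nuclei, and Foxj1, the factor that drives motile ciliogenesis, had 9, 6 and 15 UMIs. Within the RGC/PSC-like cluster the ependymal markers summed to 181, 147 and 202 CPM in the selected nuclei against 184, 122 and 211 in the others. The part of ependymal nuclei in the other values was not tested. Microglial markers summed to 26.7, 19.9 and 11.8 CPM against 163, 93.7 and 78.5, which the rule's exclusion of microglial RNA in part ensures.

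The p53 target genes outside the rule were higher as a group than other genes were. The 5 lists of targets hold 55 genes, of which 54 were matched by symbol and 25 had the 200 UMIs per library. Of the 25, 6 were at least 2-fold higher in all 3 libraries, against 2.77% of all genes, 18 were above the other nuclei in all 3, against 35.8%, and none was 2-fold lower, against 4.32%. Their median log2 ratio was 0.47, 0.40 and 0.41, while that of all ranked genes was 0.08, 0.05 and 0.10. With the filter lowered to 50 UMIs in every library, 14 of 41 targets were 2-fold higher in all 3 libraries, against 3.25% of all genes, and 32 were above 0, against 34%. Summed over the 54 genes the level was 5683, 4944 and 5056 CPM against 3795, 3380 and 3424, to which Exoc4 contributed most.

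Of the 9 feedback genes that passed the filter, 7 were above the other nuclei in all 3 libraries, against 35.8% of all genes, and 3 at least 2-fold, against 2.77%. Ccng1, a cyclin that recruits phosphatase 2A to Mdm2, was at 95.5 CPM (93 UMIs) against 34.0 in control, at 55.5 (39 UMIs) against 19.6 in CBP-ablated and at 71.9 (79 UMIs) against 19.9 in p300-ablated, log2 ratios of 1.49 (1.16 to 1.81), 1.503 (0.97 to 1.996) and 1.85 (1.48 to 2.21). Trp53inp1, which promotes phosphorylation of p53 and cell death, was at 153, 102 and 153 CPM against 63.8, 39.4 and 47.5. Trp53cor1, the noncoding RNA next to Cdkn1a, was at 58.5, 84.0 and 67.3 CPM against 29.1, 26.3 and 25.8. All 3 of these genes were over 2-fold higher in every library. Zmat3, an RNA-binding target of p53, was higher by log2 0.59, 0.98 and 0.83. By contrast Mdm4, the partner of Mdm2, differed by 0.25, 0.18 and 0.09, and Cop1, another ligase for p53, by -0.43, -0.02 and -0.01.

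No gene of the cell cycle arrest list reached 200 UMIs in every library, so it has no counts past the fold. Values are given for Cdkn1a, Psrc1 and Btg2 and for the sum of its 10 genes. The other genes of the list are not described singly. Cdkn1a, which encodes the cyclin-dependent kinase inhibitor p21 (chromosome 17, 29090976 to 29100727, plus strand), was at 91.4 CPM (89 UMIs) against 24.2 in control, at 45.6 (32 UMIs) against 11.2 in CBP-ablated and at 68.2 (75 UMIs) against 14.6 in p300-ablated. Its log2 ratios were 1.92 (1.57 to 2.26), 2.02 (1.42 to 2.59) and 2.23 (1.84 to 2.60). Cdkn1a was thus about 4-fold higher in each library, yet only 141 of the 753 nuclei held a Cdkn1a UMI. Psrc1, which binds spindle microtubules, showed log2 ratios of 1.91, 1.98 and 1.96, and Btg2, an antiproliferative regulator, of 1.47, 2.24 and 1.12. The whole list summed to 326, 205 and 210 CPM against 114, 70.1 and 76.8.

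Cell death genes were also higher. All 5 that passed the filter (Fas, Eda2r, Aen, Ei24 and Bax) lay above the other nuclei in all 3 libraries, against 35.8% of all genes. Of these, 2 were at least 2-fold higher, against 2.77%. Fas, the death receptor, was at 76.0, 72.6 and 68.2 CPM against 20.7, 15.8 and 24.3, and Eda2r, another member of the tumour necrosis factor receptor family, at 73.9, 42.7 and 60.9 CPM against 33.8, 19.0 and 22.4. Bbc3, which encodes the BH3-only protein PUMA, did not pass the filter and had 17, 20 and 19 UMIs, 17.5, 28.5 and 17.3 CPM against 5.09, 4.82 and 4.95. In the CBP-ablated library 13 of its 20 UMIs came from 1 nucleus, without which the level was 10.0 CPM. Bax, the pore-forming protein of mitochondria, showed log2 ratios of only 0.27 (-0.29 to 0.79), 0.34 (-0.37 to 0.98) and 0.42 (-0.18 to 0.97), intervals that hold 0.

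Repair genes were split. Of the 6 that passed the filter, 2 were above the other nuclei in all 3 libraries, against 35.8% of all genes. At least 2-fold higher in all 3 was 1 of them, against 2.77%. Mgmt, which removes alkyl groups from guanine, was at 158 CPM (154 UMIs) against 49.5 in control, 191 (134 UMIs) against 34.5 in CBP-ablated and 196 (215 UMIs) against 34.5 in p300-ablated, and was 1 of the 20 genes with the highest ratios outside the rule. Ercc5, an excision repair nuclease, was higher by log2 0.88, 0.58 and 0.72. The damage sensors Xpc and Ddb2 and the ribonucleotide reductase subunit Rrm2b had ratios of either sign, at 0.16, -0.16 and 0.32 for Xpc, -0.59, 0.28 and -0.04 for Ddb2 and 0.17, -0.14 and 0.09 for Rrm2b, with 10 to 25 UMIs in each library.

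Metabolic and other targets differed less. Of the 5 that passed the filter none was 2-fold higher, but 4 were above the other nuclei in all 3 libraries, against 35.8% of all genes. The remaining 1, Sulf2, was below them in all 3, against 24% of all genes. The medians of the 5 were 0.29, 0.13 and 0.09 beside 0.08, 0.05 and 0.10 over all genes. The list summed to 2765, 2344 and 2479 CPM against 1977, 1762 and 1831. Sesn1, a sestrin, had log2 ratios of 0.03, 0.24 and 0.09. Sesn2, its stress-responsive relative, did not pass the filter and had 1.09 (0.61 to 1.53), 1.37 (0.61 to 2.05) and 1.29 (0.76 to 1.79). Of the 13 genes of the p53 family and upstream of p53, 8 passed and none reached 2-fold, with medians of -0.06 and 0.04 in the ablated libraries and still nearer 0 in control. Trp53 itself was at 49.3, 32.7 and 51.8 CPM against 38.4, 37.4 and 33.0. Of the markers named with the set but not in the rule, Map3k20, a stress-activated kinase, was at 240, 199 and 189 CPM against 103, 78.8 and 81.4, and Peak1, a pseudokinase of the cytoskeleton, at 327, 345 and 416 CPM against 236, 230 and 258.

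**Figure D3:**
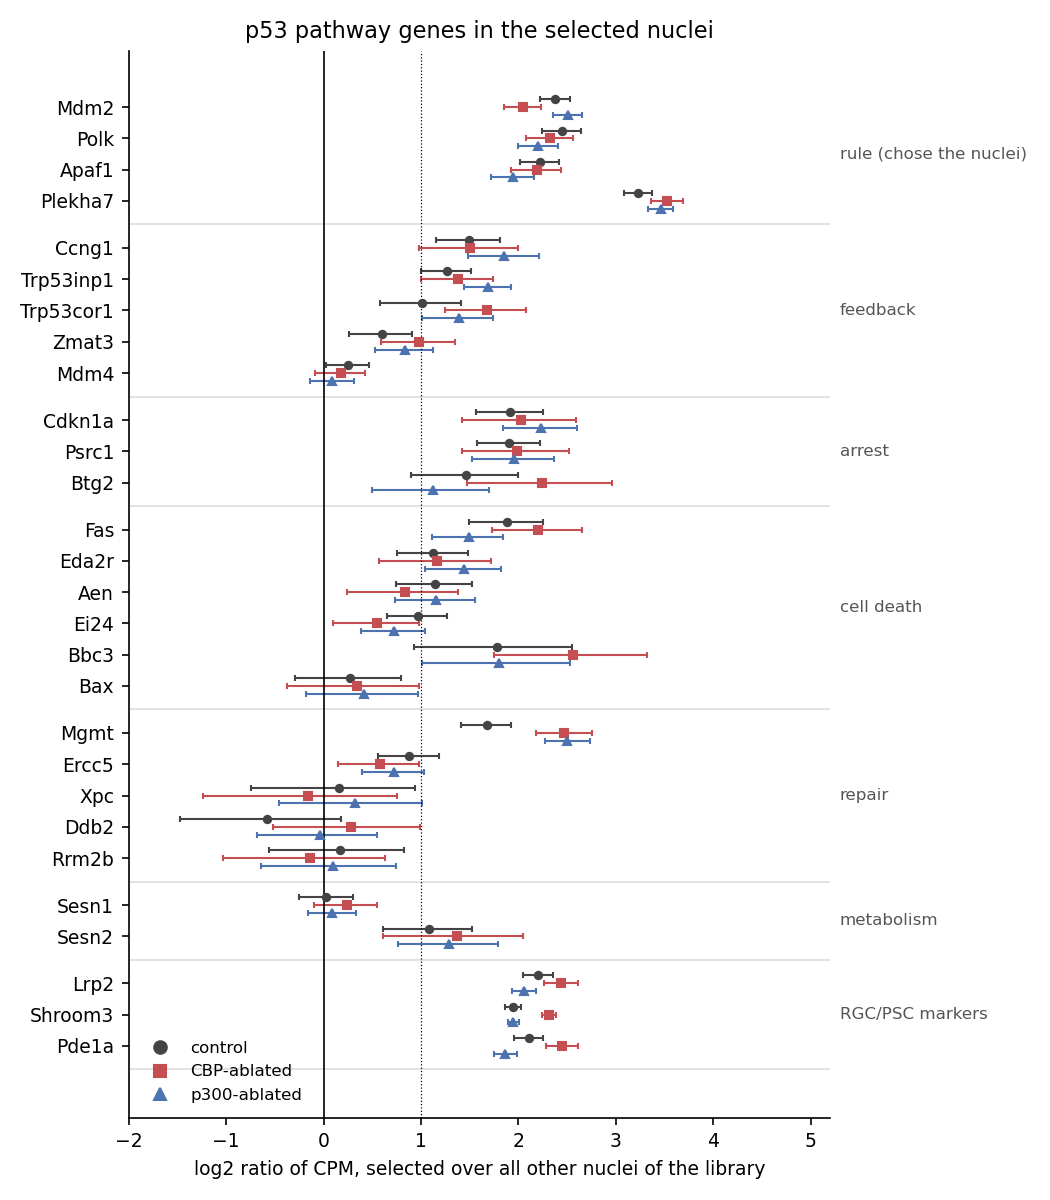
Log2 ratio of CPM in selected nuclei over all other nuclei of the same library (horizontal axis), by gene and library, with 95% counting intervals; the solid line marks equality and the dotted line a 2-fold difference. Rule genes are high by construction; Ccng1, Cdkn1a, Psrc1, Fas and Mgmt lie beyond 1 in all 3 libraries, and for Xpc, Ddb2, Rrm2b and Sesn1 the intervals hold 0 in all 3.

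In the ranking over all genes, RGC/PSC markers came first. Ranked by the lowest of the 3 ratios, the leading genes outside the rule were Lrp2, Shroom3 and Pde1a, followed by Pawr, Bmp6, Slco1a4, Anxa3, Nuak2, Col5a2 and Cp, and Mgmt was the p53 target among the first 20. Bmp6, a bone morphogenetic protein, was at 206, 501 and 419 CPM against 54.7, 106 and 116. Slco1a4, an organic anion transporter, was at 197, 231 and 414 CPM against 56.1, 55.0 and 115. At the other end were Igsf21, Vwc2, Rbfox3 (the neuronal nuclear antigen NeuN), Kcnb2 and Grik1. Grik1, a kainate receptor subunit, was at 9.24, 18.5 and 38.2 CPM against 125, 115 and 201. Outside the p53 lists, the survival genes Bcl2 and Bcl2l1 were higher, Bcl2 by log2 1.23, 1.64 and 1.49 and Bcl2l1 by 1.17, 1.12 and 1.23. Lmnb1, the lamin that is lost in senescent cells, was at 17.5, 12.8 and 14.6 CPM against 34.5, 37.9 and 41.4. It belongs to a list of 9 senescence and secreted factor genes that gave no common direction. Of the 2 ranked there, 1 lay above and 1 below the other nuclei in all 3 libraries. In the selected nuclei 5, 4 and 4 of the 9 had no UMI.

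Comparison inside the RGC/PSC-like cluster set the selected nuclei against the other nuclei of that cluster. There 8 RGC/PSC markers were ranked and 2 of them lay above 0 in all 3 libraries, with Lrp2 at 781 CPM in the 453 selected nuclei and 634 in the 1634 others (log2 ratio 0.30, 0.21 to 0.39), Shroom3 at 3460 and 3149 (0.14, 0.09 to 0.18) and Nes at 85.9 and 86.8 (-0.02, -0.29 to 0.25). The glial progenitor markers differed, since all 4 ranked were below the other nuclei in all 3 libraries, against 13.8% of all genes, with medians of -0.62, -0.35 and -0.42, and so were both ranked immature neuron markers (medians of -0.45, -0.30 and -0.23). Of the 5569 genes ranked there (at least 50 UMIs in every library within the cluster), 3 (0.0539%) were 2-fold higher in all 3 libraries and 18.8% were above 0 in all 3. Of 24 ranked p53 targets, 1 was 2-fold higher (Psrc1) and 15 were above 0. The medians of the 24 were 0.49, 0.55 and 0.25 and those of all genes 0.04, 0.02 and 0.03.

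Single p53 targets kept part of their difference within that cluster. Psrc1 was at 72.5 CPM (60.4 to 86.4) in the selected and 32.3 in the other nuclei, a log2 ratio of 1.17 (0.834 to 1.497). Ccng1 was at 83.0 CPM (69.9 to 97.7) and 39.6, a log2 ratio of 1.07 (0.76 to 1.37), and Cdkn1a at 59.2 CPM (48.2 to 71.8) and 29.4, a log2 ratio of 1.01 (0.65 to 1.37). By library, Cdkn1a was at 93.4 and 34.6 CPM in control, 37.4 and 23.1 in CBP-ablated and 50.8 and 29.7 in p300-ablated. Trp53inp1 and Mgmt each showed a log2 ratio of 0.80, while Fas, high in the cluster as a whole, came down to 0.28 (0.01 to 0.55) and Bcl2 to 0.10 (-0.01 to 0.20). Sesn1 (-0.20), Cop1 (-0.06) and Bax (-0.03) did not lie above the other nuclei.

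The astrocyte-like cluster of the control library gave like values for the arrest and feedback genes. Its 102 selected nuclei held Cdkn1a at 96.2 CPM against 49.5, Psrc1 at 119 against 63.1 and Ccng1 at 109 against 60.3. Gdf15, a secreted stress factor, was at 48.1 CPM against 10.0 there, on 15 UMIs in the selected nuclei. Lrp2 was low in both, at 54.5 and 43.4 CPM. When the other nuclei of each library were weighted to the cluster and depth of the selected ones, the p53 lists had medians of 0.40, 0.46 and 0.29 with 19 of 25 genes above 0, against 19.6% of all genes, but no p53 gene and 2 of all genes (0.0282%) were 2-fold higher.

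The nuclei that did not need Plekha7 were compared with those that did. This split was made after the values had been seen. Cdkn1a was at 112, 80.9 and 126 CPM in the 267 nuclei chosen without Plekha7, at 78.0, 27.8 and 43.1 in the 486 that needed it, and at 24.2, 11.2 and 14.6 in the others. The radial glial genes had the opposite order among the selected nuclei, with Shroom3 at 1241, 2119 and 1801 CPM in the first set and 1700.1, 3531 and 2952 in the second, and Lrp2 at 343, 400 and 446 against 502, 535 and 666. Both sets were above the other nuclei for each of these genes. Of the 25 p53 targets that passed the filter, 20 were higher in the first set than in the second over all libraries together, against 57.7% of all genes, and 12 in each of the 3 libraries, against 20.2%. Over all libraries Ccng1 was at 94.4 and 66.4 CPM, Fas at 80.8 and 67.5, Trp53inp1 at 184 and 117 and Psrc1 at 89.1 and 60.4, whereas Trp53cor1 was at 61.9 and 71.9. Mgmt was at 179.5, 183 and 212 CPM in the first set and 144, 195 and 188 in the second. With Plekha7 dropped from the rule, the shares were 2.46%, 2.02% and 1.85%, p300-ablated differing from control by -0.607 percentage points (-1.19 to -0.0214), and the p53 lists had medians of 0.75, 0.78 and 0.76 with 19 of 25 genes above 0 and 6 of them 2-fold higher, while of all genes 30.1% were above 0 and 1.02% (72 of 7088) 2-fold higher.

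**Figure D4:**
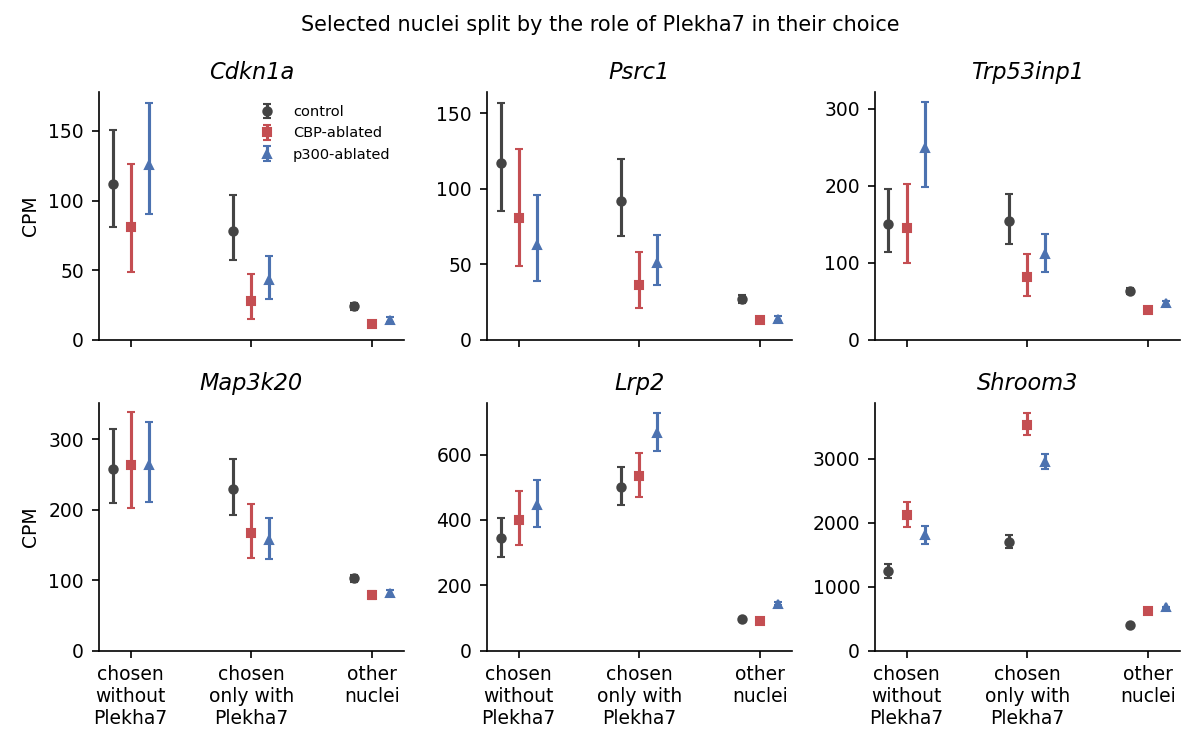
CPM (vertical axes, from 0) of 6 genes in selected nuclei that meet the rule without Plekha7, in those that meet it only with Plekha7, and in all other nuclei, by library, with exact Poisson 95% intervals. Cdkn1a is highest in the first set (112, 80.9 and 126 CPM) and Shroom3 in the second (1700.1, 3531 and 2952 CPM).

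Levels were next read across the limits of the rule, as a description, since the bins are cut by the rule genes. In nuclei of at least 4000 UMIs, Cdkn1a was at 6.15 CPM where the rule genes had 0 to 2 UMIs per 10000 (2121 nuclei), 11.4 at 2 to 5, 26.1 at 5 to 10, 37.6 at 10 to 20 (212 nuclei) and 298 at 20 and above (19 nuclei). From the lowest to the highest bin Fas went from 10.2 to 149 CPM and Trp53inp1 from 34.7 to 276. The radial glial genes also differed between the bins, with Lrp2 at 55.1, 134, 267, 607 and 627 CPM and Shroom3 at 250.1, 652, 1363, 2765 and 2329. The last bin stood far above the rest for Cdkn1a, but of its 28 UMIs 10 came from 1 nucleus, without which it was at 200.3 CPM. In p300-ablated that nucleus held all 10 Cdkn1a UMIs of the bin's 6 nuclei, and 1 nucleus held 6 of its 8 Trp53inp1 UMIs. At the limit on UMIs, nuclei just outside had levels of these targets close to those just inside: at 3 UMIs and at least 10 per 10000 (189 nuclei) Cdkn1a was at 60.8 CPM and Ccng1 at 69.5, and at exactly 4 UMIs (225 nuclei) they were at 67.2 and 59.9. Lrp2 did differ there over all libraries, at 254 CPM at 3 UMIs and 402 at 4, and in control, at 140 and 373. Its intervals overlapped in CBP-ablated (407, 277 to 578, and 494, 371 to 644) and in p300-ablated (379, 282 to 498, and 402, 324 to 493). At the limit on the rate, nuclei at 8 to 10 per 10000 (185 nuclei) held Mgmt at 77.5 CPM (61.1 to 97.1) and Cdkn1a at 26.5. Those at 10 to 12 (169 nuclei) held Mgmt at 128 CPM (104 to 156) and Cdkn1a at 35.2, so over all libraries the intervals of Mgmt did not overlap. By library they overlapped in control (28.7 to 84.6 and 61.5 to 164) and p300-ablated (83.5 to 152 and 100 to 178), but not in CBP-ablated (29.5 to 87.0 and 90.6 to 192). Over all libraries the intervals of Lrp2, at 324 (290 to 362) and 541 CPM (490 to 596), and of Shroom3, at 1915 and 2598, did not overlap either. The libraries differed for Lrp2, which was at 273 and 502 CPM in control and 325 and 671 in p300-ablated, but at 376 and 358 in CBP-ablated.

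**Figure D5:**
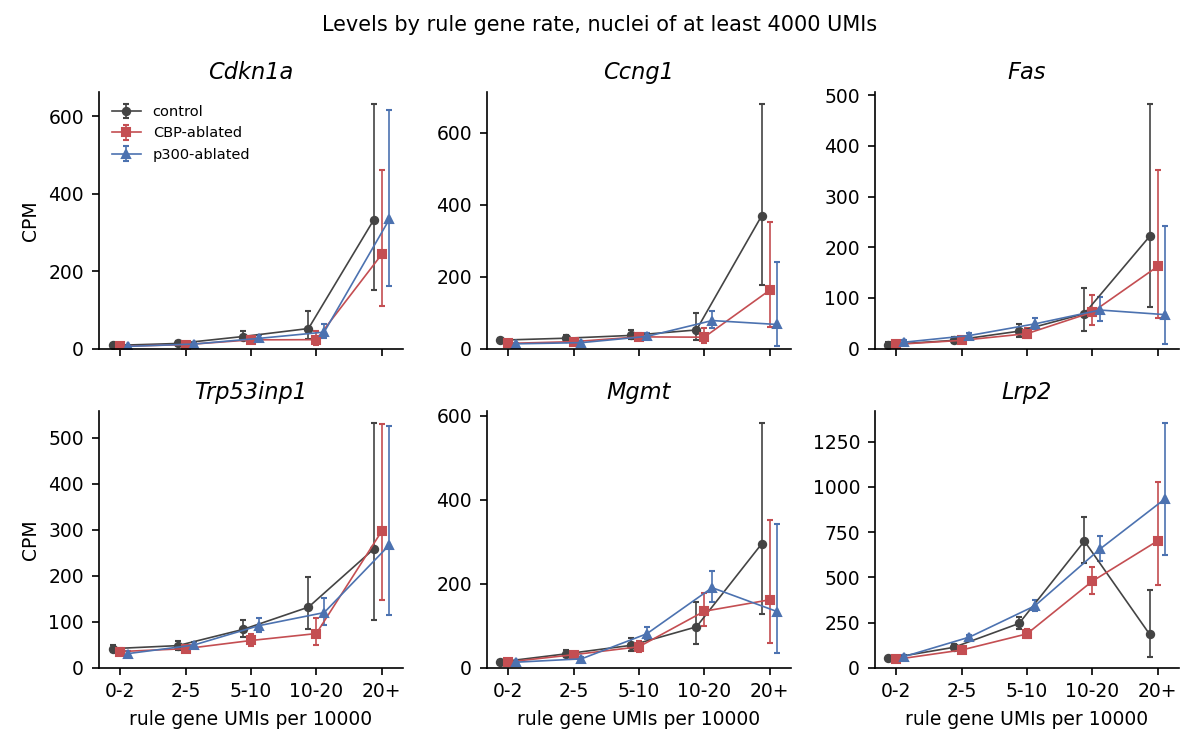
CPM (vertical axes, from 0) of 6 genes in nuclei of at least 4000 UMIs, binned by rule gene UMIs per 10000 (horizontal axis), by library, with exact Poisson 95% intervals; bins from 10 upward hold selected nuclei. Cdkn1a, Fas and Trp53inp1 were higher with each bin over all libraries together, and the last bin rests on 5, 8 and 6 nuclei.

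A small cluster is described for its p53 targets. Its median depth was 1427.5 UMIs in control, 3039 in CBP-ablated and 1800.5 in p300-ablated, lower in each library than the medians given above. In the unnamed cluster led by Gpr149, Syt1 and Ets1, the 27 selected nuclei (23 of which did not need Plekha7) held Mdm2 at 2096 CPM, Cdkn1a at 466, Eda2r at 324, Trp53inp1 at 375 and Map3k20 at 505, against 100.3, 46.7, 68.2, 56.5 and 120 CPM in its 423 other nuclei. Mdm2 is a rule gene, so its difference follows from the choice. These pooled levels mix the libraries unequally, since CBP-ablated gave 8 of the 27 selected nuclei but 244 of the 423 others. By library, in the order control, CBP-ablated, p300-ablated, Trp53inp1 was at 159, 126 and 665 CPM against 85.8, 42.4 and 98.4 in the others. The selected nuclei held 3, 3 and 23 UMIs of it. Cdkn1a was at 318, 336 and 636 against 98.0, 9.57 and 189, and Eda2r at 318, 126 and 462 against 104, 39.6 and 182. These rest on 6, 8 and 22 UMIs of Cdkn1a and 6, 3 and 16 of Eda2r in the selected nuclei. In CBP-ablated 5 of the 8 Cdkn1a UMIs came from 1 nucleus, without which the level was 160 CPM. Without the 12 nuclei of p300-ablated the levels were 1078 CPM for Mdm2, 328 for Cdkn1a, 211 for Eda2r and 141 for Trp53inp1, an alternative chosen after seeing the data. Of the RGC/PSC markers, Lrp2 was at 12.9 CPM (1 UMI) and Shroom3 at 77.6 in these nuclei, Nes and Hes1 had no UMI, and Vim was at 129 and Sox2 at 104 CPM. Single nuclei carried much of it. A nucleus of the p300-ablated library held 74 of the 162 Mdm2 UMIs, without which the level was 1203 CPM, and the Cdkn1a level without the nucleus that held most of it (10 of 36 UMIs) was 356 CPM. In the CBP-ablated library, gene by gene, a single nucleus held 13 of 14 Bbc3 UMIs, 10 of 10 Gdf15 UMIs, 27 of 28 Ddit4 UMIs and 17 of 17 Atf3 UMIs of these 8 nuclei. Ddit4 and Atf3 are genes of the general stress response. Over all 27 nuclei the level without the top nucleus was 111 CPM for Bbc3, against 10.7 in the other nuclei of the cluster, 83.0 for Atf3, against 18.5, 27.7 for Ddit4, against 13.6, and 13.8 for Gdf15, on 1 UMI, against 3.89. By library the other nuclei held Atf3 at 49.0, 2.73 and 68.1 CPM and Bbc3 at 18.4, 4.10 and 37.8. The selected nuclei of control and p300-ablated held Atf3 at 106 and 116 CPM (2 and 4 UMIs) and Bbc3 at 52.9 and 173 (1 and 6 UMIs). Such levels lie near the floor of counting.

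Finally, the selected nuclei of each ablated library were set against those of control, both sharing the control nuclei. Crebbp was at 375 CPM in control, 420 in CBP-ablated and 373 in p300-ablated selected nuclei, and Ep300 at 132, 120 and 105. For Ep300 in p300-ablated the log2 ratio was -0.33 (-0.70 to 0.04), and the other nuclei differed by 0.04. The study describes a loss of mature Ep300 RNA after recombination, but the counts here include unspliced nuclear RNA of the whole gene, so they check the labels only weakly, and a loss of either gene was not detectable in them. Of the 5384 genes with at least 50 UMIs in the CBP-ablated and control sets together, 196 (3.64%) were 2-fold higher and 190 (3.53%) 2-fold lower, and of 6010 in the p300-ablated comparison 170 (2.83%) and 138 (2.3%). Of the p53 targets none was 2-fold higher in either, and 2 of 25 were 2-fold lower in CBP-ablated and 1 of 28 in p300-ablated. Their medians were -0.32 and -0.24 in the selected nuclei, where all genes had 0.05 and 0.03, and -0.23 and -0.19 in the other nuclei. Both medians changed sign when the log2 ratio in the other nuclei was subtracted gene by gene, as given with the alternatives below. Intervals wholly below 0 were found for 12 of the 25 in CBP-ablated, against 11.8% of all genes, and for 5 of the 28 in p300-ablated, against 11.1%. The 2-fold lower targets in CBP-ablated were Cdkn1a (log2 ratio -1.005, -1.64 to -0.41) and Ckap2, a protein of the mitotic spindle (-1.22, -2.24 to -0.30), for which the other nuclei differed by -1.11 and -0.81. The 2-fold lower target in p300-ablated was Rchy1, another ubiquitin ligase for p53 (-1.21, -1.77 to -0.67), for which the other nuclei differed by -0.48. Cdkn1a was at 91.4 CPM in control, 45.6 in CBP-ablated and 68.2 in p300-ablated selected nuclei, Ckap2 at 43.1, 18.5 and 28.2, and Rchy1 at 90.4, 58.4 and 39.1.

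The largest ratio in both comparisons was that of Cdc20b, a gene of multiciliated cells, at 1.03 CPM (1 UMI) in control, 147 in CBP-ablated and 76.4 in p300-ablated selected nuclei. Its log2 ratios were 7.16 (4.65 to 12.47) and 6.22 (3.70 to 11.54), and the other nuclei differed by 5.13 and 4.16. Slc7a11, the cystine transporter, was at 374 CPM in control, 5.69 in CBP-ablated and 7.28 in p300-ablated selected nuclei, log2 ratios of -6.04 (-7.92 to -4.67) and -5.68 (-6.91 to -4.69), and the other nuclei differed by -5.19 and -4.93. Gpc5 was lower by log2 -3.68 in CBP-ablated. Mbp, the myelin basic protein, was higher by 3.22 (2.81 to 3.65) in CBP-ablated, where the other nuclei differed by 2.23. Zfp536, a zinc finger repressor, was at 34.9, 383 and 240 CPM, and its log2 ratio of 2.78 (2.26 to 3.34) in p300-ablated stood beside 0.26 in the other nuclei. The control set alone held astrocyte-like nuclei (102 of 303), and the part of this makeup in the differences between sets was not tested.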

How the data were processed

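The authors deposited raw UMI counts per gene and nucleus for 3 libraries, 1 per condition. The submitters' processing notes name FastQC 0.11.9, Cell Ranger 3.1, Seurat 2.3.4 and GRCm38, and the study's methods describe 3′ libraries counted over exons and introns. Of 30559 genes, 30410 were matched to GENCODE M21. Here counts were summed over selected and other nuclei of a library and given as CPM, and log2 ratios carry conditional binomial 95% intervals. Genes were ranked where every library had at least 200 UMIs (50 within the RGC/PSC-like cluster, and 50 over both sets between libraries), and a gene was counted past a log2 ratio of 1. Clusters came from Seurat 5.3.0 (1572 variable genes, 20 components, 30 neighbours, resolution 0.6), and doublets were called with Scrublet in scanpy 1.11.5 and kept. Ptprv and Ddit3 were unmatched. No test was made, since each condition has 1 library. Named genes were the rule genes, the marker and pathway lists, the 20 highest and 10 lowest ranked genes, and the 5 largest and 5 smallest ratios between libraries; members and lists were chosen with earlier results of these data known. Alternatives changed the limits, depth, doublets, filter, clustering and weighting. Scripts were tested on simulated data.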

Additional observations from a re-analysis of the deposited data

Results flagged for a closer look

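In 4 genes of the lists that passed the filter of 200 UMIs, the selected nuclei lay above the other nuclei of 1 library and below those of another with 95% counting intervals that exclude 0 on both sides, and these differences between libraries were not tested. Gfap, the intermediate filament of astrocytes, had a log2 ratio of 0.66 in CBP-ablated, -0.42 in control and -0.78 in p300-ablated. Slc1a2, a glutamate transporter of astrocytes, had 0.36 in control, 1.25 in CBP-ablated and -0.59 in p300-ablated. Gpc5 had 0.0947 in control and -1.31 in p300-ablated. Tcf7l2, a Wnt effector of committed oligodendrocyte precursors, had 0.49 in p300-ablated and -0.62 in CBP-ablated.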

How the results depend on the processing

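With 1 library per condition, leaving out a library removes its condition, so this was done only for pooled levels in the small cluster led by Gpr149. No paired analysis was possible because each group holds 1 sample. The shares, in the order control, CBP-ablated, p300-ablated, were 7.12%, 8.44% and 7.78% after thinning, 3.75%, 2.82% and 2.60% at 15 per 10000, 2.21%, 3.12% and 3.03% at 6 UMIs and 3.54%, 3.68% and 3.21% without Mdm2 in the rule. Among nuclei of at least 4000 UMIs, not thinned, the control share was 3.70% and the p300-ablated share 5.13%. Without Plekha7, an alternative chosen after seeing the data like the unthinned one, the shares were 2.46%, 2.02% and 1.85%, 72 genes were 2-fold higher and 156 lower, and the p53 medians were 0.75, 0.78 and 0.76. With other nuclei weighted to cluster and depth, 2 genes were 2-fold higher and 1 lower, no p53 gene was, and the p300-ablated p53 median was 0.29. At 4000 UMIs that median was 0.25. With at least 50 UMIs in place of 200, 364 genes were 2-fold higher, among them 14 of 41 p53 genes, 32 p53 genes were above 0 and the medians were 0.88, 0.83 and 0.72. The share of selected nuclei in their largest cluster was 60.2%, 52.5% when clustering with all genes and 30.1% at resolution 1.2. In the main setting Sulf2 was below 0 in all 3 libraries. Reversed values were Sulf2 at 0.65 in CBP-ablated and 0.68 in p300-ablated when weighted and 0.011 and 0.18 without Plekha7, Mdm4 at -0.074 in control at 4000 UMIs, and the between-library p53 medians, 0.0397 and 0.0556 after subtracting the other nuclei. The cause was not tested. Of the values for single genes under the alternatives, 465 stayed, 97 moved and 5 reversed. Genes with few UMIs are limited by depth.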

Other observations

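Other gene groups gave mixed values. Of 4 ranked genes of the apoptosis machinery, 2 were at least 2-fold higher in all 3 libraries (Bcl2 and Bcl2l1), against 2.77% of all genes. Within the RGC/PSC-like cluster none of the 3 ranked was, against 0.0539% of all genes, with medians of 0.09, 0.08 and 0.13. Interferon response genes summed to 79.1, 81.1 and 88.2 CPM in the selected nuclei of control, CBP-ablated and p300-ablated against 51.8, 50.3 and 55.0 in the others. Within the RGC/PSC-like cluster they summed to 102, 103 and 83.8 CPM against 94.1, 109 and 87.9. S phase genes summed to 160, 149 and 223 CPM against 231, 251 and 271, and none of the 5 ranked was 2-fold higher or lower in all 3 libraries. Inside that cluster they summed to 123, 108 and 121 CPM against 128, 107 and 104. Genes of the integrated stress response summed to 77.0, 121 and 54.6 CPM against 51.2, 31.2 and 37.7, and in CBP-ablated 27 of the 39 UMIs of Ddit4 came from 1 nucleus. Inside the cluster these genes summed to 51.9, 48.4 and 49.5 CPM against 46.2, 38.1 and 35.9. Endothelial markers summed to 15.4, 12.8 and 10.9 CPM against 9.19, 8.05 and 6.98, and mural and fibroblast markers to 12.3, 21.4 and 13.6 CPM against 5.35, 5.40 and 5.40. Of the 6 mural and fibroblast genes, 3, 4 and 4 had no UMI in the selected nuclei. Inside the RGC/PSC-like cluster endothelial markers summed to 16.6, 13.2 and 7.62 CPM against 8.66, 11.2 and 6.49. Mural and fibroblast markers summed there to 14.5, 26.4 and 17.8 CPM against 27.7, 23.7 and 19.1.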
